A study of Mus musculus with 6 samples.

Results

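The miRNAs described here carry the numbers from miR-6896 to miR-7094, a stretch of miRBase names given late and, in most cases, to sequences found in introns. Every entry of the miRNA list whose name falls in this range was taken, whatever its letter or arm, without regard to its measured values. This gave 236 of the 1189 entries (19.8%), of which 144 were 3p arms and 92 were 5p arms, from 167 hairpins. Small RNA was sequenced from the prefrontal cortex of 6 male C57BL/6 mice aged 18 months, with 1 library per mouse (the sample titles carry 17 months). The 3 mice of the PND group (postoperative neurocognitive disorder) breathed 1.5% isoflurane for 30 min. They then underwent a 30 min exploratory laparotomy, also under isoflurane, and afterwards received lidocaine cream at the incision and povidone iodine. The 3 mice of the CON group received no operation, and no anesthesia until the harvest. Behavioural tests, deep isoflurane anesthesia and perfusion with saline preceded dissection in the mice of both groups. The comparison asks which miRNAs differ after anesthesia and operation.

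A miRNA is cut from a folded RNA hairpin, and either strand of the hairpin (the 5p or the 3p arm) can be loaded into an Argonaute protein, which pairs with target mRNAs through the seed, bases 2 to 8 of the mature miRNA. Most miRNA hairpins are released from their transcript by Drosha. A mirtron is released by splicing instead, because the hairpin is a short intron, so that its 3p arm ends at the splice acceptor. In a tailed mirtron only one end of the hairpin lies at a splice site, and the rest of the intron is trimmed away. The best known mammalian mirtrons, miR-877 and miR-1224, are expressed in brain.

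The sequences of the most abundant members come first, since most of them share the way they end. They are the mature sequences of RefSeq (GRCm38.p6), with the seed in capitals. Among the 12 most abundant, miR-6952-3p had no entry there, and the sequence of miR-7047-3p is not shown.
miR-6944-3p: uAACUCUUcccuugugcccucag
miR-7015-3p: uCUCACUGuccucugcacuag
miR-6988-3p: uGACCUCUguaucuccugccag
miR-7075-3p: cAACCAUGucuucuuucccag
miR-6928-3p: aAGCUGUUccuguacucuccag
miR-7044-3p: aUGCAGCCccgacccucacag
miR-6989-3p: uGUCCACUgucucuggucccag
miR-6911-3p: uCAAUCACacucuguccacag
miR-6906-3p: gAAUUCCGgucuccucuccag
miR-6899-3p: uUGUCCUUcugugucuucugcag

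These 10 sequences all end in AG, the letters that close an intron, whereas miR-7047-3p does not, and the seeds of the 10 all differ.

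The positions were read from RefSeq and set against the introns of GENCODE M21, both on GRCm38. RefSeq held 214 of the 236 members, and all 214 lay inside an intron on the same strand, in 148 host genes. Among the lower-numbered miRNAs (names below miR-6896) 56.3% of the 700 matched entries did so, and among the names above miR-7094, 71.0% of 62. Of the 127 matched 3p members, 103 (81.1%) ended at the very last base of the intron and 123 within 3 bases of it. The corresponding share was 4.42% of 339 lower-numbered 3p entries and 13.3% of 30 higher-numbered ones. The 3p members ended in AG in 81.9% of cases, against 10.3% of the lower-numbered 3p entries and 20% of the higher-numbered ones. At the other end of the intron the picture differed, since only 2 of 87 matched 5p members, miR-7080-5p and, named after its position was seen, miR-7091-5p, began at the first base.

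**Figure D1:**
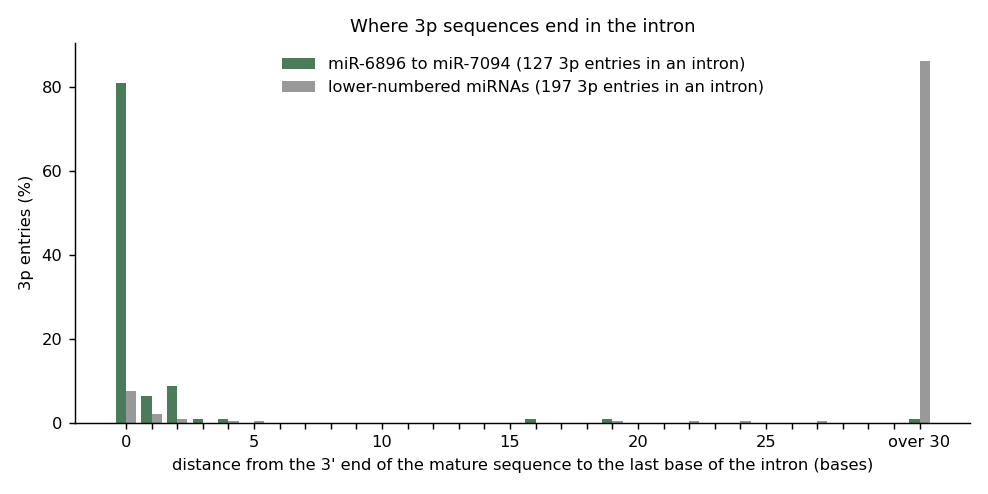
Distance in bases (horizontal axis) from the end of the mature sequence to the last base of the smallest intron holding it, as percent of the 3p entries that lie in an intron (vertical axis), for the 127 matched 3p members (green) and 197 lower-numbered 3p entries (grey). The members stand at 0 with 81.1%, whereas 86.3% of the lower-numbered entries lie over 30 bases away.

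The name "short intron" held for a minority of the members. The median length of the intron was 550 bases, against 4598 for the 394 lower-numbered entries in an intron on their strand. It was 3014 for 44 higher-numbered ones. An intron under 200 bases held 60 of 214 members (28.0%) and 39 of all 700 matched lower-numbered entries (5.57%). Those 39 lie among the 394, as the 700 include entries outside such introns. Of the 127 matched 3p members, 87 lay in an intron of 200 bases or more. Most matched 3p members therefore sit at or near the acceptor end of an intron that is longer than a hairpin. No matched 5p member ended within 3 bases of the acceptor. The levels were set against this length by arm. The 40 3p members of introns under 200 bases had a median of 0.261 CPM (counts per 1000000 reads on listed miRNAs, averaged over the 6 libraries), and the 87 in longer introns had a median of 0.217 CPM. A mean of at least 1 CPM was reached by 27.5% and 27.6% of them. For the 5p arms the order was the other way, with a median of 0.0414 CPM for the 20 members in introns under 200 bases and 0.0895 CPM for the 67 in longer ones, values that lie near 1 read.

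The arms also differed in composition, which the rule did not use. The 3p members were rich in C and U, as the tract before a splice acceptor is. Their median was 71.4%, against 54.5% in lower-numbered and 55.5% in higher-numbered 3p entries. The 5p members were rich in G (median 40.9%, against 27.3% in lower-numbered and 34.9% in higher-numbered 5p entries). Lengths ran from 19 to 25 bases. No member sequence was contained in another, and 214 distinct sequences were seen, so no pair of matched members was identical. How reads with several matching places were assigned is not given in the sources used here. Reads of miR-6967, whose hairpin has 2 positions in RefSeq, and of 9 members that overlap an exon of a protein-coding transcript of their host, among them miR-7044-3p, could therefore include other transcripts.

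Seeds were compared among the 997 matched entries only, so entries without a match could add shared seeds. The 214 matched members held 204 distinct seeds. Only 10 seeds were held by a pair of members, and 14 members shared a seed with an entry outside the set. These examples were chosen after their values were seen. The seed UCACAGC of miR-6985-3p is also that of miR-673-5p, which had a mean of 24.7 CPM. The seed GGUCAGA of miR-6915-5p is that of miR-540-3p, at 22.3 CPM. The seed CUGUUCU is held by miR-6932-3p and miR-7039-3p together with miR-26a-2-3p and miR-26b-3p, of which the higher reached 15.2 CPM. The members in these 3 groups summed to 0.0974, 0.050 and 0.278 CPM, so each of these 3 seeds was carried mostly by the lower-numbered entries. Of the 11 shared seeds, the member was higher in GUCCUUC (miR-6948-3p 2.25 CPM, miR-7117-3p 0.791 CPM) and UUCUGAC (miR-7006-3p 0.955 CPM, miR-1966-3p 0.846 CPM). It was also higher in UCGGGGA (miR-6966-5p 0.0715 CPM, miR-542-5p 0.0490 CPM), and lower in the rest.

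The depth set what could be seen. The deposited CPM were whole multiples of 1 read in 100% of values, and the recovered totals were 19471226, 17600766 and 17712218 reads in the PND group and 15275467, 14849461 and 16093467 in the CON group. One read was worth 0.0514 to 0.0673 CPM, and 3 reads, taken as the floor, 0.154 to 0.202 CPM. Markers of neurons (5 miRNAs) summed to 286403 to 377479 CPM. Most of this was miR-128-3p, at 176370 to 292349 CPM and highest in CON2. In contrast, miR-124-3p had 4018 to 6178 CPM and was lowest in CON2. In library CON1, 6 markers of epithelial or olfactory tissue summed to 1323 CPM, against 49.4 to 106 CPM in the other 5 libraries, with miR-141-3p at 3.8 CPM in CON1 and at most 0.0622 CPM elsewhere (0 in CON2). In library PND1 the red blood cell marker miR-451a had 40.9 CPM, against 0.621 to 3.08 CPM elsewhere, and the 4 markers of that list summed to 189 CPM, against 84.9 to 117 CPM. The part of these cells in the results was not tested. Without CON1 the count of members with an unadjusted p under 0.05 rose from 11 to 18 of 236. The count of all entries rose alongside it from 61 to 91 of 1189. Without PND1 the counts were 18 members and 88 of all entries. In this bulk tissue, fewer cells of a type and less of a miRNA per cell cannot be told apart.

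The members were detected at very low levels. Together they took 3517, 3152 and 3110 reads in the PND libraries and 2746, 2490 and 2786 in the CON libraries, which is 0.0181%, 0.0179% and 0.0176% of the reads in the PND group and 0.0180%, 0.0168% and 0.0173% in the CON group. Of the 236, 113 (47.9%) had a read in all 6 libraries, against 77.1% of the lower-numbered entries and 44.6% of the 74 higher-numbered ones. The median member had 15 reads in all 6 libraries together, with a range of 2 to 1470, and 64 members had a mean of less than 1 read per library. A mean of at least 10 CPM was reached by 3 members (1.27%), against 41.0% of the lower-numbered entries and 2.70% of the higher-numbered ones.

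The same held for each library. At least 1 read was found for 177, 183 and 180 members in the PND group and for 179, 178 and 171 in the CON group. At least 10 reads were found for 64, 63 and 58 members in the PND group and for 55, 53 and 55 in the CON group, whose libraries were shallower. At an equal depth of 14849461 reads, the number of members seen was 173 ± 3.74 under PND and 175 ± 5.86 under CON (SD, n = 3), a difference within the spread.

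A few members held a large share of the reads. The 12 most abundant took 49.9% of the 17801 reads on members, and the leading 3 took 21.3%. All 12 were 3p arms. Over the whole set the 3p arms took 91.6% of the reads, with a median level of 0.234 CPM against 0.0663 CPM for the 5p arms, and of the 42 members with a mean of at least 1 CPM, 41 were 3p arms. The 103 3p members that end at the last base of the intron held 88.3% of the reads on matched 3p members. A read covers the whole miRNA, so levels were not scaled by length.

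miR-6944-3p (chr13:55477681-55477703, minus strand) was the most abundant member. It forms the last 23 bases of a 96-base intron of Dbn1, which encodes drebrin, an actin-binding protein of dendritic spines. It had 273, 292 and 244 reads in PND1 to PND3 and 279, 157 and 225 in CON1 to CON3, or 14.8 ± 1.56 CPM (PND) and 14.3 ± 3.85 CPM (CON, SD, n = 3). CON1 was the highest library and CON2 the lowest, so the PND values lay inside the range of the CON values. Its variance over the libraries was 7.42 times that of pure counting (chi-square per degree of freedom), the highest of the members.

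miR-7015-3p (chr4:120973259-120973279, minus strand) closes a 1127-base intron of Smap2, which encodes a GTPase-activating protein for Arf in vesicle traffic. It had 297, 234 and 233 reads under PND against 168, 155 and 210 under CON. The levels were 13.9 ± 1.17 CPM (PND) and 11.5 ± 1.37 CPM (CON, SD, n = 3). The lowest PND library (13.2 CPM) lay just above the highest CON library (13.0 CPM). Its log2 difference of 0.26 (standard error 0.15) did not pass (limma, Benjamini-Hochberg adjusted p = 0.77).

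miR-6988-3p (chr19:6051371-6051392, plus strand) ends an 82-base intron of Syvn1, which encodes a ubiquitin ligase of the endoplasmic reticulum. It had 217, 177 and 166 reads under PND against 140, 164 and 157 under CON (10.2 ± 0.894 and 9.99 ± 0.961 CPM, SD, n = 3). miR-7075-3p (chr8:107096025-107096045, minus strand) ends a 97-base intron of Terf2, which encodes a protein that binds telomeres, and had 163, 132 and 171 reads against 131, 100 and 151. The groups overlapped for both miRNAs.

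miR-6928-3p (chr11:101030388-101030409, plus strand) lies in Atp6v0a1, which encodes a subunit of the vacuolar proton pump. It was the steadiest of the abundant members, with 7.40, 7.39 and 7.40 CPM in the PND group and 7.46, 7.54 and 8.02 CPM in the CON group. The CON mice were all higher, but the difference on the log2 scale was -0.05 (standard error 0.14). Its chi-square per degree of freedom was 0.130, so its values lay closer together than counting alone would usually leave them.

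The remaining abundant members lay between 3.58 and 6.25 CPM. miR-7044-3p (Rasgef1a, a guanine nucleotide exchange factor) had 5.83 ± 0.948 CPM (PND) and 6.66 ± 0.827 CPM (CON, SD, n = 3), and miR-6989-3p, at the end of a 77-base intron of the kinase gene Map4k2, had 6.19 ± 1.01 and 6.12 ± 0.143 CPM. miR-6911-3p lies in Dazap1, an RNA-binding protein gene, and had 5.70 ± 0.915 CPM (PND) and 5.49 ± 0.787 CPM (CON, SD, n = 3). miR-6906-3p (Spock2, a proteoglycan of the extracellular matrix) had 4.41 ± 0.264 and 4.62 ± 0.780 CPM. In each of these 4 the groups overlapped.

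miR-6952-3p had 92, 83 and 82 reads under PND against 67, 51 and 64 under CON, and every PND library (4.63 to 4.72 CPM) was above every CON library (3.43 to 4.39 CPM). miR-6899-3p closes the longest host intron, 36269 bases of the transcription factor gene Klf7, and had 4.17 ± 0.548 CPM (PND) and 3.97 ± 0.656 CPM (CON, SD, n = 3). miR-7047-3p had 3.41 ± 0.762 and 3.75 ± 0.670 CPM (SD, n = 3). Along the whole order of 12 the values of each neighbouring pair overlapped.

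**Figure D2:**
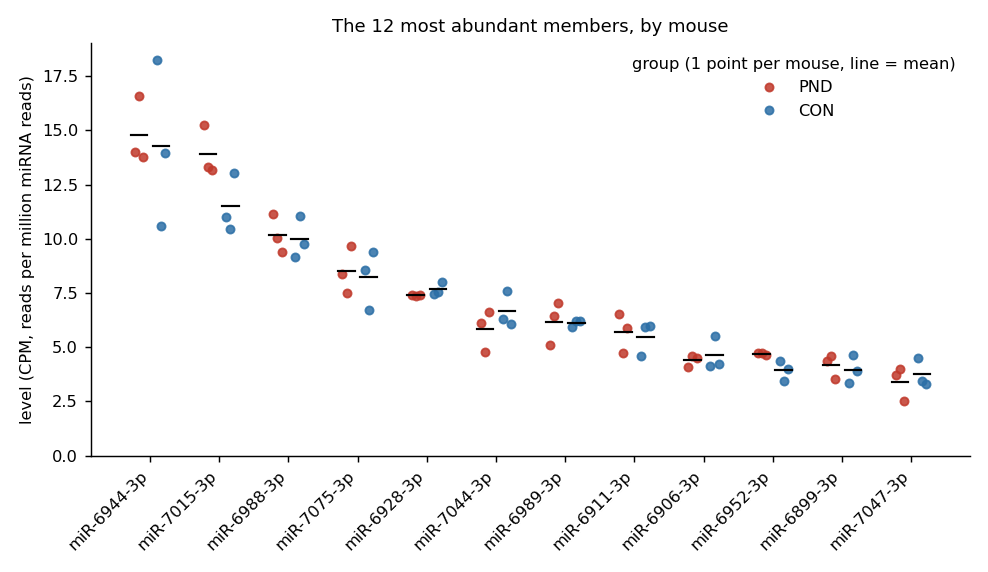
Level in CPM (vertical axis) of the 12 most abundant members (horizontal axis), with 1 point per mouse and a line at each group mean, PND in red and CON in blue. The groups overlap in 9 of the 12, and the exceptions are miR-7015-3p, miR-6952-3p and miR-6928-3p.

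The spread between mice was set against counting error. Over the 56 members with a mean of at least 10 reads per library, the median chi-square per degree of freedom was 1.27, where 1 is pure counting. It was 2.35 over the 240 other named entries in the same range of reads. Read numbers inside that range were not matched, and their part in this difference was not tested. A value above 2 was found for 30.4% of these members and for 58.3% of the other entries. After miR-6944-3p the highest was miR-7079-3p with 5.83.

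Arm use was then examined in the 69 hairpins with both arms listed. The 3p arm had more reads in 51 (73.9%), the 5p arm in 17, and 1 was equal. Of 297 lower-numbered hairpins with both arms, 49.5% had more 3p reads, and of 15 higher-numbered ones, 60%. Among the 18 hairpins of the set with at least 100 reads, 17 had more 3p reads. A further 75 hairpins were listed by the 3p arm alone and 23 by the 5p arm alone. Of the names that RefSeq holds in the range, 127 of 177 3p arms (71.8%) and 87 of 178 5p arms (48.9%) were listed.

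Both arms of 3 hairpins are shown with the seed in capitals: miR-6896 and miR-7059, the 5p-led hairpins with most 5p reads, and miR-7080, the hairpin with the most even use of both arms among those tested.
miR-6896-5p: uUUGUAGGcgacgagaacccgu
miR-6896-3p: uUUCUCUCucucaccuacaaac
miR-7059-5p: aCCGGGGAcugcggcuuucagu
miR-7059-3p: uGUUUGCUguuuguccucccag
miR-7080-5p: gUAGGAGCuggagguggguuugg
miR-7080-3p: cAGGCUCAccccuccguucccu

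miR-6896, in an intron of Dst (dystonin, a cytoskeletal linker), was the exception among the hairpins with most reads. Its 5p arm (chr1:34117364-34117385, plus strand) had 61, 50 and 47 reads under PND against 35, 29 and 40 under CON, and its 3p arm had 3 reads in all, so 98.9% of the reads were 5p. miR-7059, in Cln3, a lysosomal membrane protein gene mutated in Batten disease, had 79 reads on the 5p arm and 3 on the 3p arm. miR-7056, in Ptpn5, which encodes a phosphatase enriched in the striatum, had 65 and 34 reads. miR-7080, in a 67-base intron of Cpne7, a gene for a calcium-dependent membrane-binding protein, used both arms in each library, with 94 reads on the 5p arm and 156 on the 3p arm (37.6% 5p). Its 5p arm starts at the first base of the intron and its 3p arm stops 4 bases before the end, so both arms lie next to a splice site.

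**Figure D3:**
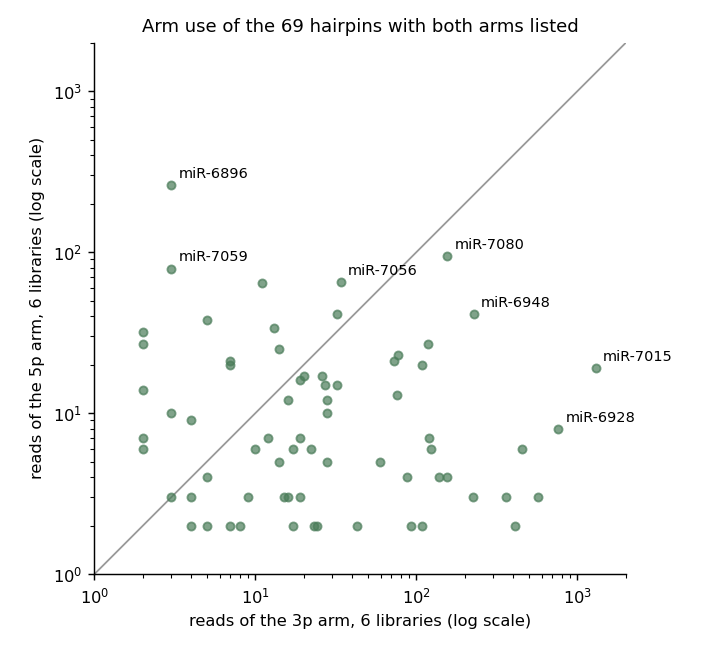
Reads of the 3p arm (horizontal axis) and the 5p arm (vertical axis), summed over the 6 libraries, for the 69 hairpins with both arms listed, on log scales with a line of equal reads. In 51 hairpins the point lies below the line, miR-7015 far below it with 1297 and 19 reads, and miR-6896 far above it with 3 and 262 reads.

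Compared with the CON group, the share of 5p reads in these hairpins was not clearly different in the PND group. It was 15.9%, 19.4% and 15.8% under PND against 16.1%, 14.7% and 15.9% under CON, or 17.1 ± 2.07% and 15.6 ± 0.778% (SD, n = 3). The groups overlapped, and PND2 stood highest. Without PND2 the difference fell from 1.49 to 0.297 percentage points. A total of 11 hairpins had at least 20 reads in every library and were tested one by one. None reached 0.1, the smallest p of an exact permutation test (two-sided) with 3 mice against 3. In miR-7080 the 5p share was 37.7 ± 8.07% under PND and 37.3 ± 9.57% under CON (SD, n = 3). In miR-6948, in Acin1, which encodes a splicing-associated protein, it was 15.8 ± 5.4% and 11.5 ± 11.8%, and in miR-7063, in Ap2a2, an endocytosis adaptor gene, it was 16.5 ± 15.3% and 21.9 ± 9.32%. The other 8 were miR-7015, miR-6928, miR-6911, miR-6906, miR-6899, miR-7047 and miR-6994, with under 2% of 5p reads, and miR-6896, with 98.9%.

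The summed level of the members was nearly the same in both groups. It was 180.6, 179.1 and 175.6 CPM under PND against 179.8, 167.7 and 173.1 CPM under CON, or 178 ± 2.58 and 174 ± 6.05 CPM (SD, n = 3). The groups overlapped. The log2 ratio of the means was 0.04, it was 0.07 without CON1, and it took the other sign (-0.08) with TMM factors, so no direction is given.

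Next, single members were compared with limma on log2(CPM + 1), a scale on which differences of members with few reads are understated. No member passed both limits of the study (unadjusted p under 0.05 and more than 2-fold). In the whole list 1 of 1189 entries did (0.0841%). On this scale the outcome was fixed for 189 of the 236 members, whose means were under 1 CPM in both groups and could not reach a 2-fold difference, so the fold change of the group means is given further on. No member had an adjusted p under 0.05 by limma, edgeR or DESeq2, and the smallest was 0.77 by limma with Benjamini-Hochberg adjustment over all entries, where 0.421% of all entries were called. An unadjusted p under 0.05 was found for 11 members (4.66%), against 5.13% of all entries, a share near the background. The quasi-likelihood and exact tests of edgeR gave 7 and 5 members, and DESeq2 gave 1, with smallest adjusted p-values of 0.472, 0.437 and 0.983. Over all 1189 entries these tests gave 50, 41 and 28. Of the 11 by limma, 5 were higher in the PND group and 6 were lower, where 4.04% of all entries were called higher and 1.09% lower. With TMM factors the split was 1 higher and 8 lower, and with DESeq2 size factors 1 and 9, so the split depends on the scaling. Either scaling called 52 of all entries. The log2 differences of the 236 members ran from -0.54 to 0.58, with 117 above and 119 below 0. Their median was -0.00, against 0.05 over all entries.

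**Figure D4:**
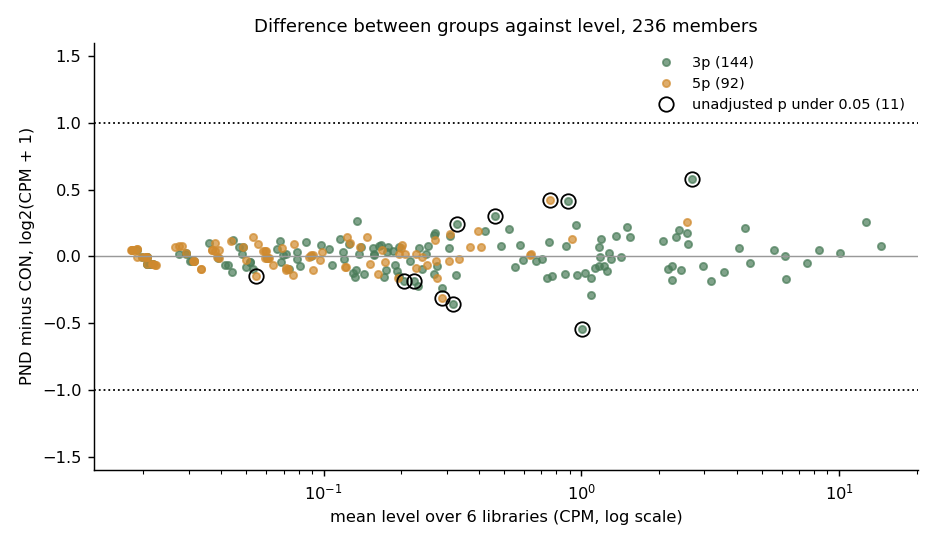
Difference between PND and CON on the log2(CPM + 1) scale (vertical axis) against the mean level in CPM over the 6 libraries (horizontal axis, log scale), 1 point per member, 3p in green and 5p in orange, with rings around the 11 members with an unadjusted p under 0.05. All points lie between the dotted lines at -1 and 1, which mark a 2-fold change on this scale.

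The matched members with an unadjusted p under 0.05 have these sequences, with the seed in capitals, and are shown because they are the members with the smallest p-values of the comparison. The sequence of miR-7059-5p stands above.
miR-7079-3p: uGACUUCUguucucuuuccag
miR-7008-3p: uGUGCUUCuugccucuucucag
miR-7070-3p: cAGGCUCUccuucccuccag
miR-7056-3p: cCUCACCUgucucccaccacag
miR-6929-3p: cAGGUGCUgucuucuucuuccag
miR-6947-5p: cAUCCAGUggagaggcucgug
miR-7053-3p: cUCCUGUGucuccuuccccag
miR-7026-3p: uGUGCUUUcuggucuuggcuuag
miR-7024-5p: uUGGGGGAuggguugcuuggc

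Among the members with higher values in the PND group, miR-7079-3p (chr8:123105023-123105043, plus strand) had the largest difference on the log2(CPM + 1) scale. It ends an intron of Rpl13, a ribosomal protein gene, and overlaps a retained-intron transcript of that gene. It had 54, 61 and 70 reads under PND against 18, 30 and 45 under CON, or 3.40 ± 0.592 and 2.00 ± 0.809 CPM (SD, n = 3). The groups overlapped slightly, since CON3 lay above PND1, and CON1 was the lowest. The log2 difference was 0.58 (standard error 0.24, unadjusted p = 0.044, adjusted p = 0.77 by limma with the Benjamini-Hochberg method). The ratio of its group means, 1.70, was the smallest of the 5, the highest being 2.05 for miR-7059-5p and miR-7070-3p. The unadjusted p was no longer under 0.05 without CON1, without CON2, or without any one of the PND mice. It was also 0.05 or more with TMM factors, DESeq2 size factors, the exact test of edgeR and DESeq2.

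miR-7059-5p (chr7:126579506-126579527, minus strand), the 5p-dominated member in Cln3, had 24, 18 and 14 reads under PND against 7, 7 and 9 under CON. The levels were 1.02 ± 0.221 CPM (SD, n = 3) and 0.496 ± 0.0549 CPM (SD, n = 3), without overlap. The log2 difference was 0.42 (standard error 0.13, adjusted p = 0.77 by limma with the Benjamini-Hochberg method). Its unadjusted p was under 0.05 without each mouse in turn, but not in DESeq2.

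miR-7008-3p, in Prkci, an atypical protein kinase C gene, had 23, 20 and 20 reads under PND against 15, 9 and 5 under CON (log2 difference 0.42, standard error 0.17). Its other arm had 2 reads. miR-7070-3p, at the end of an 86-base intron of Fbxw9, had 11, 16 and 7 reads against 5, 5 and 4 (log2 difference 0.30, standard error 0.13). miR-7056-3p, in Ptpn5, had 9, 7 and 8 reads against 5, 4 and 1 (log2 difference 0.24, standard error 0.10). None of these 3 overlapped between groups. Each of them had an unadjusted p of 0.05 or more with TMM factors, DESeq2 size factors, a pseudocount of 0.1, either edgeR test and DESeq2. With 1 mouse left out, miR-7008-3p and miR-7056-3p stayed under 0.05 only without CON1, and miR-7070-3p only without PND3. The 5p arm of miR-7056, with more reads, did overlap, at 15, 15 and 6 reads under PND against 10, 6 and 13 under CON.

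Among the members with lower values in the PND group, miR-6929-3p (chr11:101419187-101419209, minus strand), at the end of an intron of Ptges3l, had the largest difference on the log2(CPM + 1) scale. The ratio of its group means was 0.463, and lower ratios were found for miR-6956-3p (0.334), miR-6947-5p (0.347) and miR-7026-3p (0.460). It had 15, 14 and 6 reads under PND against 21, 24 and 18 under CON, or 0.635 ± 0.257 and 1.37 ± 0.249 CPM (SD, n = 3), without overlap. The log2 difference was -0.54 (standard error 0.17, unadjusted p = 0.013, adjusted p = 0.77 by limma with the Benjamini-Hochberg method). It was the one member of the 11 whose unadjusted p stayed under 0.05 in every alternative that tested it, each mouse left out included.

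miR-6956-3p had 6, 2 and 1 reads under PND against 6, 9 and 7 under CON (log2 difference -0.35, standard error 0.11). The values did not overlap in CPM, although PND1 and CON1 had the same number of reads, since PND1 was sequenced more deeply. miR-6947-5p, in Actr8, which encodes a chromatin remodelling subunit, had 1, 2 and 5 reads against 4, 6 and 10, with an overlap of PND3 and CON1 (log2 difference -0.31, standard error 0.12). The unadjusted p of miR-6956-3p was 0.05 or more without PND3, and that of miR-6947-5p without PND1, PND2, CON2 or CON3. Neither was under 0.05 in DESeq2.

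The last of these members lay near the floor of 3 reads. miR-7053-3p, in Pold1, which encodes the catalytic subunit of DNA polymerase delta, had 3, 3 and 2 reads under PND against 6, 4 and 4 under CON. miR-7026-3p, in Ep400, a chromatin remodelling gene, had 2, 3 and 2 reads against 5, 3 and 5, and its 5p arm had 0, 7 and 3 reads against 2, 0 and 5. miR-7024-5p, in Nelfa, a gene of transcriptional pausing, had no read under PND and 2, 2 and 1 reads under CON, so no fold is given. Each of these 3 members had at most 6 reads in a library, and none was under 0.05 in DESeq2 or in limma without trend.

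**Figure D5:**
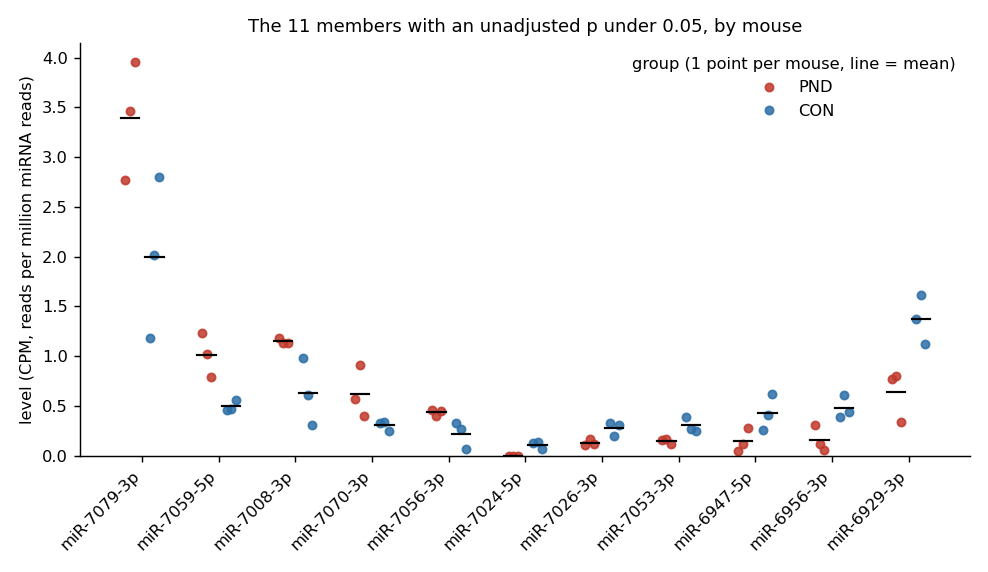
Level in CPM (vertical axis) of the 11 members with an unadjusted p under 0.05 (horizontal axis, ordered by log2 difference), with 1 point per mouse and a line at each group mean, PND in red and CON in blue. Most lie below 1 CPM, and only miR-7079-3p and miR-6947-5p overlap between groups.

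In 25 members the PND and CON values were fully separate. All PND mice were higher in 15 (6.36%), against 7.91% of all entries, and all CON mice were higher in 10 (4.24%), against 2.02% of all entries. With a mean of at least 10 reads per library these were 6 of 56 members (10.7%), against 9.68% of all entries, and 2 of 56 (3.57%), against 1.11%. Beside the members named above, the 6 included miR-6896-5p, with 2.88 ± 0.242 CPM (PND) and 2.24 ± 0.269 CPM (CON, SD, n = 3), and miR-7052-3p. The latter lies in Josd2, a deubiquitinase gene, and had 53, 45 and 45 reads against 28, 32 and 40 (2.61 ± 0.1 and 2.16 ± 0.326 CPM, SD, n = 3). Scaling changed the split, both in the members and over all entries. With TMM factors 11 members were higher and 11 lower, against 5.38% and 3.45% of all entries. With DESeq2 size factors 10 members were higher and 13 lower, against 5.13% and 3.70% of all entries. Both scalings were added after the data were seen. Among the 8 with enough reads, miR-7015-3p, miR-6896-5p, miR-6928-3p and miR-7052-3p overlapped under both scalings, and miR-6952-3p, miR-7008-3p, miR-7059-5p and miR-6929-3p did not. On the deposited scale, for each of these 8 members the exact permutation test (two-sided) gave 0.1, the smallest p possible.

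With the fold change taken from the group means and the exact test of edgeR, 5 members passed both limits, against 2.86% of all entries (34 of 1189). They were miR-6929-3p, miR-6956-3p, miR-6947-5p and miR-7024-5p, all lower in the PND group, and miR-7059-5p, higher. A pseudocount of 0.1 in limma called the same 4 lower members. The quasi-likelihood test of edgeR called those 4 and miR-6913-3p, higher, and DESeq2 called miR-6929-3p alone. Over all 1189 entries these settings called, in this order, 22, 21 and 11. No adjusted p of a member was under 0.05 in any of them. miR-6913-3p had only 15 reads in all, with 0.246 ± 0.257 CPM (PND) and 0.0224 ± 0.0389 CPM (CON, SD, n = 3), and its groups overlapped.

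Absence from a group was seen only at low counts. A total of 15 members had no read in the CON group, with at most 6 reads in the PND group. Another 14 had no read in the PND group, with at most 5 reads in the CON group. The same counts over all entries were not computed, and the CON libraries were shallower. Only miR-6919-5p, in Mgat4b, a glycosyltransferase gene, had at least 3 reads in exactly 1 library, with 3 reads in PND3, which is at the floor.

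The mirtrons with lower numbers, miR-877, miR-1224 and miR-702, were set beside the members. Both arms of each were listed, and they summed to 71.0 to 78.0 CPM per library, against 168 to 181 CPM for the 236 members together. In miR-1224, in contrast to most members, the 5p arm was the more abundant, with 42.6 ± 1.56 CPM (PND) and 43.0 ± 1.88 CPM (CON, SD, n = 3), against 6.27 ± 0.792 and 7.16 ± 1.2 CPM for the 3p arm. In miR-877 the 3p arm led, with 17.2 ± 0.799 and 17 ± 4.21 CPM against 3.64 ± 0.184 and 4.04 ± 0.585 CPM for the 5p arm. miR-702-3p had 3.35 ± 0.968 and 3.13 ± 0.653 CPM, and its 5p arm had at most 3 reads in a library. The groups overlapped in all 6 (exact permutation test, two-sided, p of 0.4 to 1).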

How the data were processed

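Per the labels and the paper, each library is 1 mouse. For each library the authors deposited 1 CPM value per miRNA (the paper calls it TPM): reads were filtered with fastx to 18 to 40 nt, aligned with Bowtie (0.12.2 in the submitters' processing notes, which also name mm8 and mm9), assigned by miRBase position and scaled by TMM and the library total. The miRBase release is not given in the sources used here. The labels name a total RNA kit, the methods a small RNA kit. As every column adds up to 1000000, differences in TMM scaling between libraries are no longer in the values. Whole reads were recovered within 0.01 read in 100% of values. PCR reads without molecular identifiers are not independent molecules, so floors cover counting error only.

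The members and lists were chosen with earlier results of these data known. The main test was limma 3.58.1 (R 4.3.3) with a variance trend, fitted to log2(CPM + 1) over the 1189 entries without covariates, with Benjamini-Hochberg adjustment. Differences between groups of 3 were also tested by exact permutation. edgeR 4.0.16 and DESeq2 1.42.0 on the recovered reads, other scalings, filters and pseudocounts, a replicate block and leaving out each mouse were alternatives. The fits were tested on simulated data. Named are the 12 most abundant members, members with an unadjusted p under 0.05, members without overlap at a mean of at least 10 reads, their other arms, members with at least 3 reads in a single library and the hairpins tested for arm use. Mature sequences and positions came from RefSeq (GRCm38.p6) and introns from GENCODE M21. For each sequence the smallest intron on its strand was used. The deposited values show counts and not read ends, so the ends described are those of the annotation. An item withheld from the text is not reported here.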

Additional observations from a re-analysis of the deposited data

How the results depend on the processing

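No member had an adjusted p under 0.05 in any alternative or without any mouse. The 11 members with an unadjusted p under 0.05 became 4 with at least 10 reads in at least 3 libraries and 0 with a mean of at least 10 CPM, where only 61 and 3 members were tested, 7 without trend, 7 with the quasi-likelihood test of edgeR, 5 with its exact test and 1 with DESeq2. In the same order, the 61 called over all entries became 32 of 656, 5 of 361, 57, 50, 41 and 28. Leaving out 1 mouse gave 8 to 18 members, with 18 without PND1 and 18 without CON1, and 5 to 7 of the 11 kept. Over all entries it gave 31 to 91. The count past both limits, 0, became 4 with a pseudocount of 0.1 and 5 with either edgeR test. It became 1 with DESeq2. Over all entries the count of 1 became 22 with that pseudocount and 11 with DESeq2. With the quasi-likelihood and exact tests it became 21 and 34. The 25 members without overlap became 8 with a mean of at least 10 reads. With 1 mouse fewer they became 38 to 47, where 2 against 3 overlap less often by construction. The share over all entries with 1 mouse fewer was not computed. The cause of the other changes was not tested. The log2 ratio of the summed level was -0.082 with TMM factors, and 4 more members were seen in the PND group without equal depth, against -1.92 with it. Same-numbered mice had correlations of -0.128, 0.122 and 0.508, so the numbers were not taken as pairs, and the replicate block gave 9 members with an unadjusted p under 0.05, 0 past both limits and 0 with an adjusted p under 0.05. Over all entries the block gave 56, 2 and 0. Not every mouse correlated best with its own number.

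With TMM factors, DESeq2 size factors, the quasi-likelihood test and DESeq2, in this order, the log2 difference turned negative for miR-6944-3p (-0.038, -0.066, -0.053 and -0.081), miR-6988-3p (-0.085, -0.11, -0.10 and -0.13), miR-7075-3p (-0.061, -0.087, -0.066 and -0.097), miR-6989-3p (-0.10, -0.13, -0.12 and -0.15), miR-6911-3p (-0.060, -0.086, -0.072 and -0.10) and miR-6899-3p (-0.039, -0.063, -0.059 and -0.091), and none of these values passed a limit. Leaving out 1 mouse also turned the sign of these and of miR-6906-3p and miR-7047-3p, with ranges of -0.11 to 0.26, -0.034 to 0.095, -0.075 to 0.14, -0.084 to 0.12, -0.061 to 0.15, -0.031 to 0.16, -0.11 to 0.063 and -0.21 to 0.035.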
